A study of Mus musculus with 2 samples.

Results

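The aminoacyl-tRNA synthetase genes of mouse bone marrow were followed in 2 single-cell RNA libraries. Members were taken by gene symbol alone, as the symbols that name a synthetase by its amino acid plus Eprs, Farsa, Farsb, Fars2, Ears2 and Pars2, with no measured value used. The rule found 37 genes among 32286 counted features: 20 for cytosolic enzymes and 17 for mitochondrial enzymes, whose symbols end in 2. All 37 matched a protein-coding gene of GENCODE vM21 (build GRCm38) by identifier and symbol. The control library came from bone marrow of Mx1Cre+/-;Rosa26+/+ mice and the MYC library from Mx1Cre+/-;Rosa26LSL-MYC/LSL-MYC mice, in which both Rosa26 alleles carry a MYC cassette behind a stop that Cre can remove. Both genotypes carry the Mx1-Cre transgene, whose promoter answers to interferon and is active in blood stem cells and in many other cells. The labels give no age, inducing agent, time or number of animals for either library, and the study set out to compare marrow cells with and without excess MYC. There was 1 library per genotype, so no value below has a replicate, and every difference is between 2 libraries and not between conditions tested over animals.

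Each aminoacyl-tRNA synthetase joins an amino acid to its transfer RNAs, and the charged tRNA then delivers that amino acid to the ribosome. Cytosolic enzymes serve the translation of nuclear genes, and a separate nuclear-encoded set is imported to serve the few proteins made inside mitochondria. In the cytosol 8 of the genes (Eprs, Iars, Lars, Mars, Qars, Rars, Kars and Dars) encode enzymes held in the multi-synthetase complex together with the scaffold proteins Aimp1, Aimp2 and Eef1e1, and the other 12 genes encode enzymes or subunits found outside it. Gars and Kars supply both compartments, and mitochondrial glutaminyl-tRNA is made by an amidotransferase that includes Gatb, Gatc and Qrsl1. MYC is known for driving genes of ribosome and protein synthesis, which makes tRNA charging a pathway of interest in cells with excess MYC. Maturing neutrophils and late red cell precursors are known to wind down their protein synthesis machinery.

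After filtering, 14720 control cells with 119430877 unique molecular identifiers (UMIs, counted transcript molecules) and 12434 MYC cells with 100903803 UMIs were kept, with medians of 5315 and 6028 UMIs per cell. The libraries shared 97 cell barcodes. The transgene was counted as a feature of its own, with 0 UMIs among 17073 control barcodes and 329 UMIs in 304 of 14496 MYC barcodes. Most of its UMIs fell in mature neutrophils (156, or 8.48 CPM, UMIs scaled to an equal total in each cell type and library), monocytes (36, 2.27 CPM), immature neutrophils (34, 1.55 CPM) and stem or multipotent progenitors (12, 0.945 CPM), where endogenous Myc stood at 88.9 CPM. Erythroid cells of unresolved stage in the MYC library held 2 transgene UMIs (0.584 CPM) and erythroblasts 2 (3.34 CPM). Over all barcodes endogenous Myc was at 22.9 CPM in control and 21.2 CPM in MYC marrow, and 2.10% of MYC barcodes held a transgene UMI. Clusters were named from markers, each name meaning cells that resemble that type. In all, 11 types had at least 100 cells in both libraries and were compared, and levels are given for 7 others, while 2882 control and 2706 MYC cells, mostly of low depth, stayed unnamed. The cells called conventional dendritic were led by MHC class II genes but also by the macrophage genes Mrc1 and Axl. Among mature neutrophils, 1 cluster was mostly control cells (2238 against 236) and another mostly MYC cells (98 against 1405), and the remaining one held both (1452 against 1730). Ribosomal protein transcripts made up 11.2% of control and 16.7% of MYC UMIs, and Gm42418, a locus that takes up ribosomal RNA reads, fell from 142683 to 75026 CPM. Both shift the total that CPM is divided by, and their part in the differences below was not tested.

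Nars, the asparaginyl enzyme, had the most UMIs among the cytosolic genes, with 93.1 CPM (control) and 117 CPM (MYC) over all kept cells. It was followed by Eprs, which fuses the glutamyl and prolyl enzymes (82.6 and 95.9 CPM), Vars (89.1 and 79.8 CPM), Dars (66.9 and 64.6 CPM) and Sars (59.4 and 70.3 CPM). The fewest UMIs came from Yars at 16.8 and 17.8 CPM and Wars at 17.9 and 16.3 CPM. The mitochondrial range overlapped the lower cytosolic values, since Iars2 and Cars2 lay above Yars and Wars in the control. Iars2 had 28.4 and 25.7 CPM, Cars2 18.8 and 17.1 CPM, Tars2 13.9 and 11.4 CPM, and Rars2 10.6 and 9.76 CPM, down to Ears2 at 2.57 and 2.69 CPM and Pars2 at 2.11 and 2.23 CPM. Lars2 stood outside this range at 2239 and 1545 CPM and is described on its own below. These are counts of captured 3′ ends, which need no correction for gene length, but capture can differ between genes.

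Summed over the 20 cytosolic genes, early erythroid progenitors had the highest level in both libraries, 2181 CPM (95% Poisson interval 2150 to 2213) in the control and 2008 CPM (1960 to 2057) in the MYC library. Mature neutrophils had the lowest, 256 CPM (248 to 264) and 304 CPM (296 to 312). Between them in the control came megakaryocytes at 1447 CPM, stem or multipotent progenitors at 1324 CPM, erythroid cells of unresolved stage at 1166 CPM, granulocyte progenitors at 1070 CPM and B progenitors at 946 CPM. Lymphoid, basophil, monocyte, plasma and dendritic cells formed a band from 687 to 867 CPM, in which T or NK cells (806 CPM, 773 to 841) and monocytes (799 CPM, 783 to 816) had overlapping intervals. Stromal or endothelial cells had 597 CPM with a wide interval (494 to 714), immature neutrophils 452 CPM and erythroblasts 306 CPM. In the MYC library the erythroid cells of unresolved stage stood at 1970 CPM, with an interval (1923 to 2018) that overlapped that of early erythroid progenitors, and erythroblasts stood at 841 CPM, between mature B cells and T or NK cells. All intervals here cover counting error only, and cells of 1 library are not replicates.

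**Figure D1:**
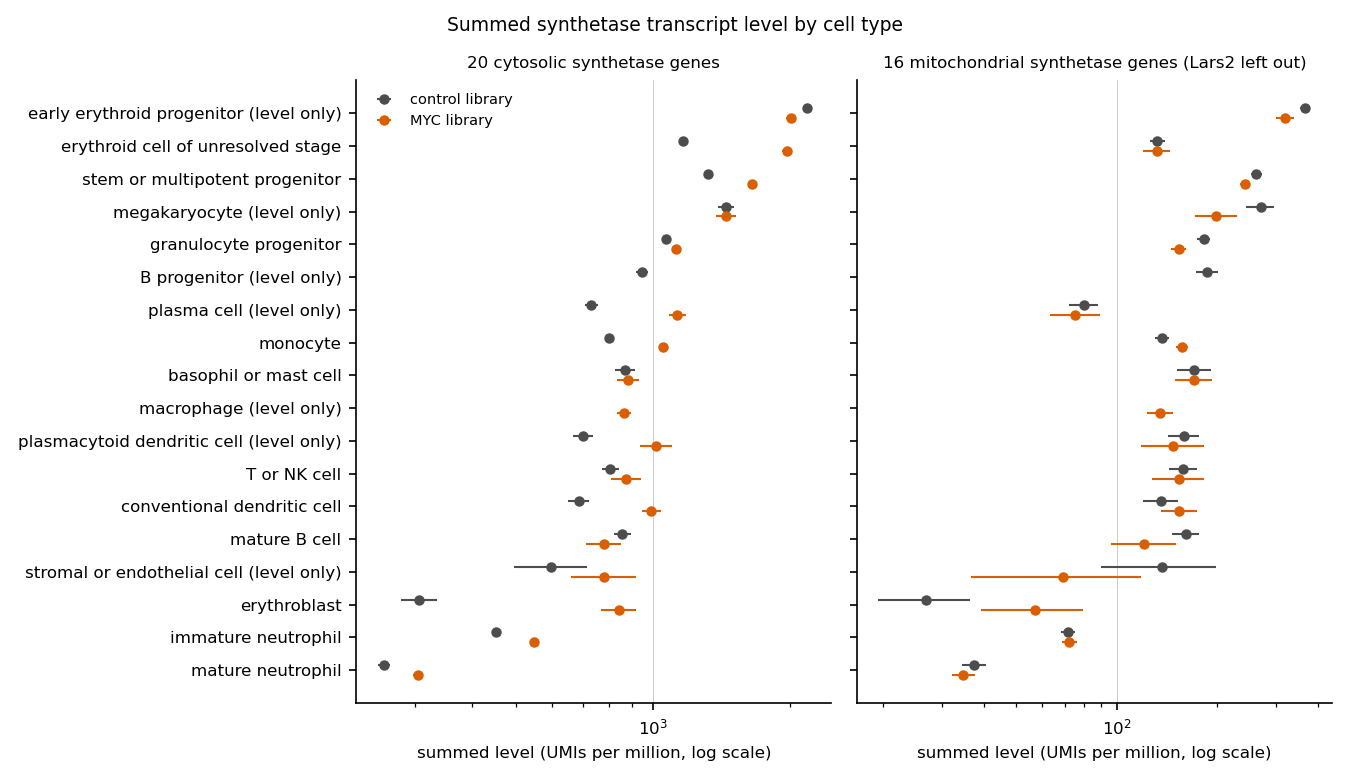
Summed CPM on a log axis for the 20 cytosolic synthetase genes (left) and the 16 mitochondrial ones without Lars2 (right) in each cell type, with 1 point per library and exact 95% Poisson intervals that cover counting error only. Cytosolic levels run from 256 in control mature neutrophils to 2181 in control early erythroid progenitors, and the MYC points lie clearly to the right of the control points in erythroblasts and erythroid cells of unresolved stage in the left panel.

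The steps of neutrophil maturation showed this range within 1 lineage. From granulocyte progenitors through immature to mature neutrophils, the summed cytosolic level went from 1070 to 452 to 256 CPM in the control and from 1122 to 548 to 304 CPM in the MYC library. All 20 cytosolic genes were at least 1.5-fold lower in mature neutrophils than in granulocyte progenitors in each library. The same fold was passed downward by 52.8% of 9041 genes in the control and 49.3% of 8610 genes in the MYC library. The median cytosolic log2 difference was -2.12 (control) and -1.94 (MYC), against -0.72 and -0.55 over all genes with at least 100 UMIs. Farsa, the catalytic subunit of phenylalanyl-tRNA synthetase, had the widest gap, 13.1-fold in the control (48.3 to 3.68 CPM) while in the MYC library it went from 56.2 to 4.67 CPM. Dars changed least, 2.23-fold (115 to 51.3 CPM) and 1.82-fold (94.3 to 51.7 CPM). Dars was the most abundant cytosolic member in mature neutrophils of both libraries. All 16 mitochondrial genes other than Lars2 had a level at least 1.5-fold lower in mature neutrophils in each library, whether or not they reached 100 UMIs, though the sparsest rest on few counts (Ears2 had 33 and 2 control UMIs). Hars2 had the narrowest gap, 2.39-fold and 1.72-fold. Yars2 went from 125 to 15 UMIs in the control and from 143 to 16 in the MYC library. Lower CPM in cells with fewer UMIs cannot be told apart from a change in what the rest of the transcriptome contributes.

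In the control erythroid cells of unresolved stage, Vars (163 CPM), Hars (156 CPM), Nars (109 CPM) and Aars (107 CPM) led, and Hars stood at 48.1 CPM in stem or multipotent progenitors and at 12.3 CPM in mature neutrophils. Aars, the alanyl enzyme, had its highest level of all types there in both libraries, 107 and 152 CPM, as did Cars at 43.3 and 59.5 CPM. The 8 complex enzymes supplied 27.4% of the cytosolic UMIs in these control cells and 23.7% in control erythroblasts, against 46.2% in stem or multipotent progenitors, 50.2% in immature and 49.0% in mature neutrophils. In the MYC library the corresponding shares were 32.4%, 30.4%, 43.9%, 47.7% and 49.4%. Early erythroid progenitors did not share the low values, at 43.8% (control) and 44.6% (MYC). Plasma cells stood at 34.0% (control) and 33.7% (MYC), and mature B cells at 36.8% and 37.7%.

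The balance of the compartments does not depend on the library total. In every one of the 11 compared types the mitochondrial UMIs, without Lars2, were a smaller percentage of the cytosolic UMIs in the MYC library than in the control. In stem or multipotent progenitors the percentage was 19.7% in the control (2736 of 13860 UMIs) and 14.6% in the MYC library (3064 of 21011 UMIs). The ratio of the latter percentage to the former was 0.739 (exact conditional 95% interval 0.698 to 0.781). The lowest ratio, 0.590 (0.528 to 0.658), was in erythroid cells of unresolved stage, at 11.4% and 6.70%. Granulocyte progenitors had 17.0% and 13.7%, monocytes 17.1% and 14.9%, immature neutrophils 15.8% and 13.2%, mature neutrophils 14.7% and 11.5%, and conventional dendritic cells 19.7% and 15.5%. The interval of the ratio lay below 1 in these 7 types. It included 1 in basophil or mast cells (19.7% and 19.2%, ratio 0.976), T or NK cells (19.6% and 17.6%), mature B cells (18.8% and 15.5%) and erythroblasts (8.81% and 6.76%), the types with the fewest UMIs. Averaging over cells in place of summing UMIs left 10 of the 11 types with a lower percentage and turned basophil or mast cells slightly the other way.

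**Figure D2:**
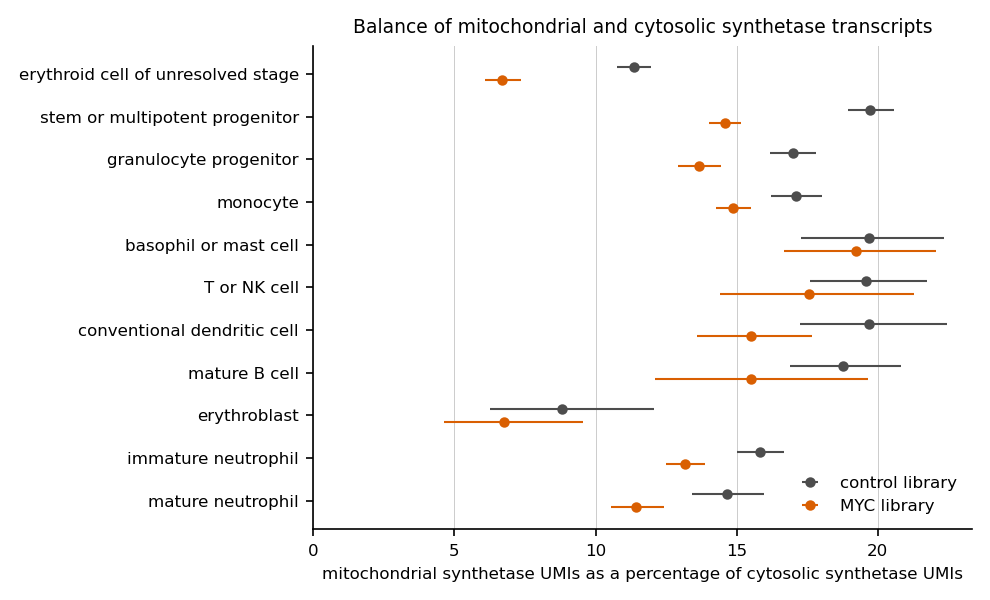
Mitochondrial synthetase UMIs (16 genes, Lars2 left out) as a percentage of cytosolic synthetase UMIs (20 genes) on a linear axis, for the 11 cell types compared, with 1 point per library and exact 95% intervals for counting error only. Each MYC point lies to the left of its control point, from 19.7% to 14.6% in stem or multipotent progenitors and from 11.4% to 6.70% in erythroid cells of unresolved stage.

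The difference in balance came with a cytosolic side that was higher in the MYC library in most types. The median log2 ratio of the cytosolic genes with at least 100 UMIs was 0.65 in erythroid cells of unresolved stage, 0.50 in conventional dendritic cells, 0.44 in monocytes, 0.28 in stem or multipotent progenitors, 0.28 in mature neutrophils, 0.25 in immature neutrophils and 0.19 in T or NK cells. Over all genes tested the corresponding medians were -0.08, -0.04, -0.14, -0.16, -0.22, -0.21 and -0.05. Granulocyte progenitors (0.06 against -0.29) and basophil or mast cells (0.02 against -0.14) had cytosolic medians near 0. Mature B cells had a cytosolic median of -0.27, the same as the median over all their genes. The mitochondrial medians, where at least 5 genes had enough UMIs, were -0.48 in granulocyte progenitors, -0.10 in stem or multipotent progenitors, -0.11 in erythroid cells of unresolved stage, -0.09 in mature neutrophils, -0.02 in immature neutrophils and 0.27 in monocytes. These mitochondrial medians were not stable in sign. Relative to the median of all genes they turned to 0.06 in stem or multipotent progenitors, 0.18 in immature neutrophils and 0.13 in mature neutrophils. Over the processing alternatives they ran from -0.53 to 0.08 in granulocyte progenitors and from -0.58 to 0.21 in erythroid cells of unresolved stage, and stayed above 0 in monocytes (0.13 to 0.41).

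Stem or multipotent progenitors had 6 of 20 cytosolic genes at least 1.5-fold higher in the MYC library, where 5.09% of 9639 genes passed that fold upward. None of the 20 passed it downward, where 12.9% of all genes did. The 6 were Cars, the cysteinyl enzyme (16.2 to 27.0 CPM), Gars (65.3 to 107 CPM), Lars (73.9 to 120 CPM), Mars, which also charges the initiator tRNA (27.9 to 44.4 CPM), Yars (24.0 to 37.3 CPM) and Nars (134 to 206 CPM). Their log2 ratios ran from 0.62 to 0.73, while Dars (-0.16), Farsb (-0.01), Qars (0.00) and Kars (0.06) stayed near 0. Over the processing alternatives Cars ran from 0.22 to 0.89 and Gars from 0.25 to 0.86, so both calls depended on the setting. Of the 15 mitochondrial genes measured here 1 was past the fold, Vars2, downward (13.4 to 8.74 CPM, log2 ratio -0.61). Its ratio ran from -0.92 to -0.25 over the processing alternatives, so that call depended on the setting. Yars2 had the highest mitochondrial ratio, 0.53 (13.8 to 19.9 CPM). The dividing-cell list stood at 1755 and 1710 CPM in these cells of the control and MYC libraries.

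In granulocyte progenitors none of the 20 cytosolic genes was past the fold either way, where 4.71% of 8658 genes passed upward and 25.6% downward. Over the processing alternatives the number past it upward ran from 0 to 4, and downward it stayed at 0. Yars and Lars were the highest, both at a log2 ratio of 0.56, and Wars the lowest at -0.37. Mars2, the mitochondrial methionyl enzyme, was past the fold downward (9.44 to 5.13 CPM, -0.88), and Tars2 stood at -0.58. Over the processing alternatives Mars2 ran from -0.95 to -0.41 and Tars2 from -0.69 to -0.25, so both places against the fold depended on the setting. In immature neutrophils 3 cytosolic genes passed upward and none downward, against 8.35% and 17.3% of 9077 genes. These were Tars, Iars (4.98 to 8.99 CPM, 0.85) and Yars (4.53 to 6.80 CPM, 0.59). Hars2 was the lowest of all members there, at -0.56 (7.76 to 5.25 CPM). In mature neutrophils Tars and Gars (209 and 413 UMIs, 0.78) passed upward and no cytosolic gene downward, against 8.11% and 20.6% of 8141 genes, while Tars2 passed downward (4.93 to 2.77 CPM, -0.83). Without the mature neutrophil clusters drawn mostly from 1 library, 1 cluster of 1452 control and 1730 MYC cells was left, in which 5 of 15 cytosolic genes were past the fold upward, against 8.72% of 6790 genes, and Tars2 no longer reached 100 UMIs.

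In monocytes 4 of 20 cytosolic genes passed upward and none downward, against 9.72% and 17.0% of 9348 genes. Mars led with 187 control UMIs and 525 MYC UMIs, the latter at 33.1 CPM (2.06-fold, log2 ratio 1.05, interval 0.80 to 1.29), followed by Farsa (22.7 to 37.8 CPM, 0.73), Lars (0.62) and Yars (0.60). Wars had the lowest cytosolic value. In conventional dendritic cells 6 of the 14 cytosolic genes measured passed upward and none downward, against 16.4% and 15.8% of 4440 genes. Lars (32.6 to 67.4 CPM, 1.05) and Iars (23.2 to 46.7 CPM, 1.01) had the widest differences, and Dars the lowest value, -0.09. The dividing-cell list in these cells went from 683 to 1545 CPM between control and MYC cells, and its part in the result was not tested.

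Erythroid cells of unresolved stage had the most cytosolic genes past the fold, 11 of 20 upward and none downward, against 12.4% and 15.2% of 6919 genes. Eprs (79.1 to 259 CPM), Wars (6.78 to 19.3 CPM), Tars (26.4 to 71.2 CPM), Lars (42.4 to 108 CPM), Sars (98.6 to 241 CPM), Gars (46.7 to 106 CPM) and Nars (109 to 227 CPM) were all more than 2-fold higher, with log2 ratios from 1.06 for Nars to 1.71 for Eprs, and Iars, Yars, Farsa and Mars lay between 0.63 and 0.94. Hars was the exception at -0.38 (156 to 120 CPM). In erythroblasts only Eprs, Sars (31.4 to 157 CPM, 2.32) and Nars (104 to 174 CPM, 0.74) reached 100 UMIs over both libraries. Eprs and Sars did so mainly through the MYC library, where they were higher. Ratios past the fold in erythroblasts are therefore a description, beside 36.5% of 1141 genes upward and 25.7% downward. Over the processing alternatives Nars ran from 0.30 to 0.92, so its place past the fold depended on the setting. The libraries differed in what else these cells held. Between control and MYC library the median UMIs per cell went from 12135.5 to 9486.5 in erythroid cells of unresolved stage and from 5631 to 1887 in erythroblasts, the dividing-cell list from 8833 to 6420 CPM and from 848 to 1119 CPM, and a list of neutrophil transcripts from 11573 to 18127 CPM and from 18077 to 56271 CPM. Their part in the erythroid differences was not tested, and an unequal mix of maturation stages in the libraries cannot be told apart from a difference within a stage.

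In lymphoid and basophil cells cytosolic genes were past the fold no more often than all genes were. In T or NK cells none of 13 cytosolic genes passed upward and 1, Hars, passed downward (44.3 to 25.8 CPM, -0.78), against 11.4% and 11.2% of 4086 genes. Qars had the highest cytosolic value there, 0.57, and Iars2, the mitochondrial isoleucyl enzyme, passed upward (27.8 to 43.0 CPM, 0.63). Over the processing alternatives Iars2 ran from 0.43 to 0.68 and Qars from 0.12 to 0.65, so both places against the fold depended on the setting. In mature B cells 3 of 13 passed downward and none upward, against 24.8% and 7.65% of 3710 genes. These were Hars (35.3 to 17.9 CPM), Iars (36.1 to 22.4 CPM, -0.69) and Sars (72.5 to 47.8 CPM, -0.60), and the highest were Vars at 0.19 and Eprs at 0.15. Over the processing alternatives Iars ran from -0.97 to -0.39, so its call depended on the setting. In these B cells the dividing-cell list went from 849 to 287 CPM between control and MYC and the neutrophil list from 6408 to 13289 CPM, and their part in these values was not tested. In basophil or mast cells none of 12 passed either way, against 9.61% upward and 17.5% downward of 4307 genes, with ratios between -0.46 for Rars and 0.29 for Lars. Each of these 3 types had at most 148 cells in the MYC library.

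**Figure D3:**
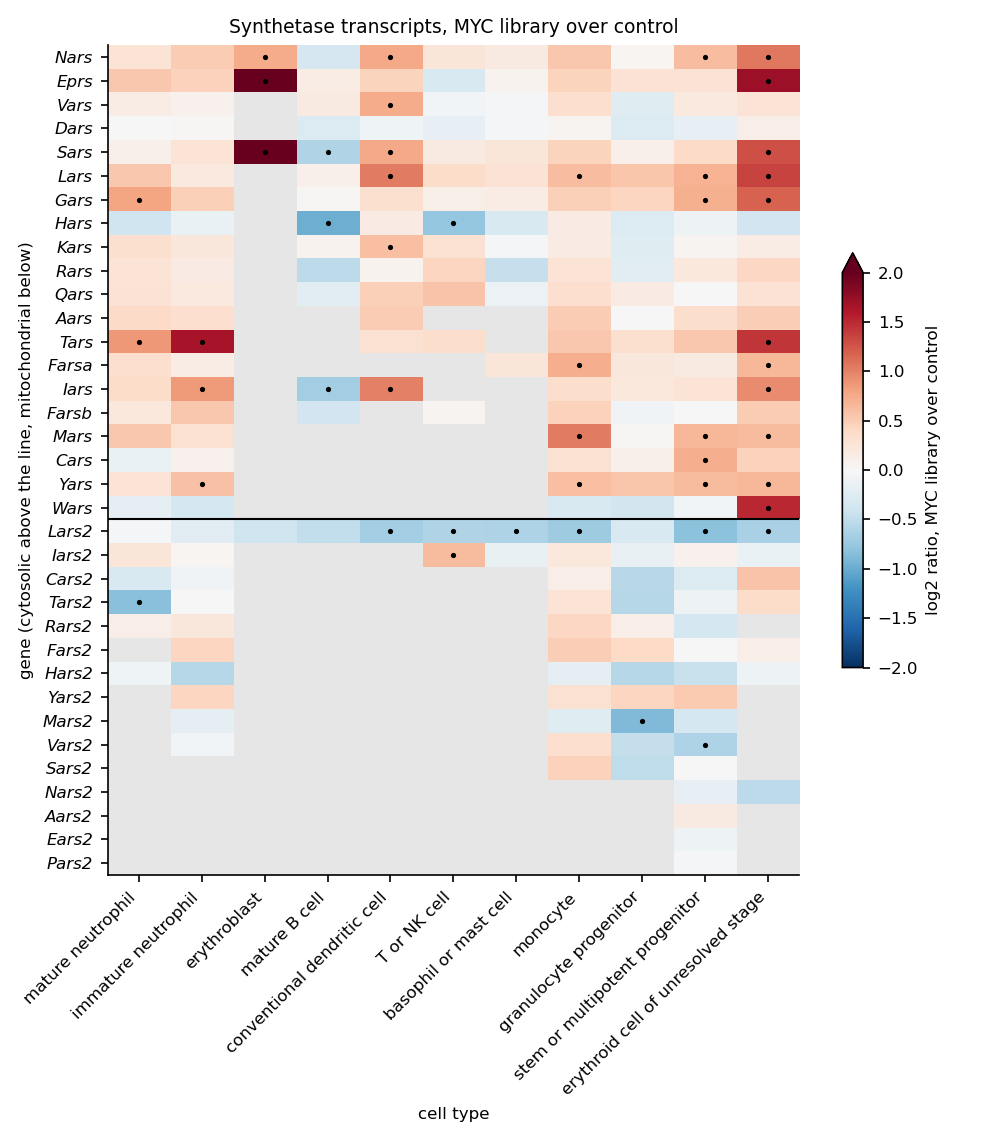
Log2 ratio of the MYC library over the control for each gene shown (rows, cytosolic above the black line, mitochondrial below) in each of 11 cell types (columns). Black dots mark ratios past 1.5-fold, grey marks genes under 100 UMIs, and the colour scale ends at 2, which Eprs (4.06) and Sars (2.32) in erythroblasts exceed. Both reached 100 UMIs there mainly through the MYC library. The upper block is mostly red, with 35 of 175 squares past the fold upward and 4 downward (over all genes 4.71% to 36.5% upward and 11.2% to 25.7% downward, by type). The Lars2 row is below 0 in every type, though near white in mature neutrophils (-0.02).

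Over the 11 types together, 138 of the 175 cytosolic values were above 0, 35 were past the fold upward and 4 downward. Of the 69466 values of all genes in these types, 9.20% were past the fold upward and 18.0% downward. The 35 cytosolic values upward include Eprs and Sars in erythroblasts, which reached 100 UMIs there mainly through the MYC library. Among the 61 mitochondrial values without Lars2, 25 were above 0, 1 was past the fold upward and 4 downward. Above the all-gene median of their type lay 155 of the 175 cytosolic and 37 of the 61 mitochondrial values. When each value was taken relative to the median of all genes in its type, the split was 55 upward and 2 downward for the cytosolic genes and 9 upward and 2 downward for the mitochondrial genes, against 14.8% upward and 9.66% downward of all genes on that scale. For the complex enzymes 13 of 75 values were past the fold upward, and for those outside it 22 of 100. The summed log2 ratio of the complex was below that of the enzymes outside it in stem or multipotent progenitors, at 0.25 (0.20 to 0.29) against 0.38 (0.34 to 0.42), and in immature neutrophils, at 0.20 (0.15 to 0.26) against 0.35 (0.29 to 0.40). In immature neutrophils the sum outside the complex includes Tars (log2 ratio 1.65). Apart from erythroid cells of unresolved stage, the intervals inside and outside the complex overlapped in all other compared types. In erythroid cells of unresolved stage the complex sum was led by Eprs: its interval was 0.92 to 1.08 with that gene and 0.57 to 0.76 for the other 7 complex enzymes, which overlapped the 0.60 to 0.70 outside the complex, and the median over genes was 0.53 in the complex and 0.66 outside it. Gars, Lars, Tars, Mars, Yars, Farsa and Aars were above 0 in every type in which they reached 100 UMIs, between 6 and 10 types each. Under that count Yars was at -0.59 in conventional dendritic cells, -0.67 in mature B cells, -0.14 in T or NK cells, -0.12 in basophil or mast cells and 0.21 in erythroblasts. Tars under that count was at -0.11 in basophil or mast cells, 0.01 in mature B cells and 0.68 in erythroblasts. Dars was above 0 in 4 of 10 types and never past the fold, with ratios between -0.28 and 0.14.

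Tars encodes the cytosolic threonyl enzyme and lies on chromosome 15 (15:11382301-11399665, minus strand). In immature neutrophils it had 154 control UMIs and 474 MYC UMIs, at 6.91 and 21.6 CPM. That was a 3.13-fold difference (log2 ratio 1.65, interval 1.38 to 1.92), the largest among members in that type, and the UMIs came from 141 and 370 cells with at most 5 in any cell. The ratio was 1.74, 1.37 and 1.43 in the 3 clusters that made up the immature neutrophils, past the fold in each. It was 0.87 in mature neutrophils (4.74 to 8.69 CPM), 1.43 in erythroid cells of unresolved stage, 0.55 in monocytes, 0.54 in stem or multipotent progenitors and 0.33 in granulocyte progenitors. In the control Tars was 7.47-fold lower in mature neutrophils than in granulocyte progenitors, and in the MYC library 5.12-fold.

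Eprs, whose fused enzyme charges the glutamate and proline tRNAs, lies on chromosome 1 (1:185363044-185428360, plus strand). In erythroid cells of unresolved stage it had 957 UMIs in 383 of 860 control cells and 886 UMIs in 230 of 328 MYC cells, a 3.27-fold higher level (log2 ratio 1.71, interval 1.58 to 1.84). In erythroblasts it had 15 UMIs in 13 of 300 control cells and 96 UMIs in 45 of 135 MYC cells, 9.61 and 161 CPM, or 16.7-fold (log2 ratio 4.06, interval 3.27 to 4.95). Across the processing alternatives this last log2 ratio ranged from 1.87 to 4.72. Early erythroid progenitors, too few in the MYC library for a comparison, had Eprs at 275 CPM (control) and 283 CPM (MYC). In the compared types outside the erythroid cells Eprs ran from -0.31 in T or NK cells to 0.54 in mature neutrophils, within the fold. That depended on how cells were pooled and scaled. By cluster it was 1.22 and 0.68 in 2 of the mature neutrophil clusters, and 0.60, 0.67 and 0.21 in the immature ones, and averaging over cells gave 1.02 in conventional dendritic cells.

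Wars, Hars and Dars were below 0 in most of the types in which they were measured. Relative to the all-gene median this did not hold, since Wars lay above it in 3 of 6 types, Hars in 5 of 10 and Dars in 6 of 10. Wars, the tryptophanyl enzyme, known as a gene induced by interferon gamma, lies at 12:108860030-108894174 on the minus strand. It was lower in the MYC library in 5 of 6 types, at -0.37 in granulocyte progenitors, -0.35 in immature neutrophils, -0.31 in monocytes (33.7 to 27.2 CPM), -0.17 in mature neutrophils and -0.05 in stem or multipotent progenitors, none past the fold. In erythroid cells of unresolved stage it was 2.84-fold higher, on 82 and 66 UMIs. Hars, the histidyl enzyme, was below 0 in 8 of 10 types and past the fold in mature B cells (94 and 12 UMIs, -0.98) and T or NK cells (118 and 21 UMIs, -0.78). In mature B cells it reached 100 UMIs through the control. In T or NK cells its value ran from -1.14 to -0.19 over the processing alternatives, and it was within the fold when averaged over cells or with doublets kept. In mature neutrophils Hars stood at -0.40 with the mostly 1-library clusters and at 0.09 without them.

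**Figure D4:**
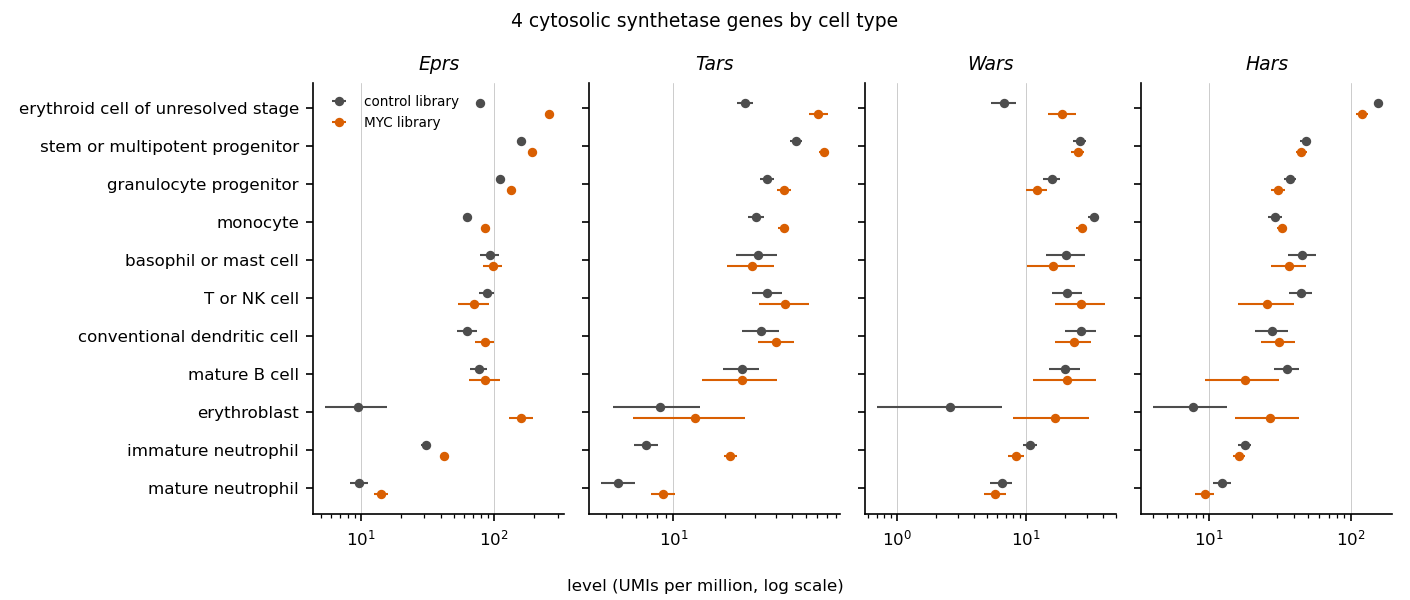
Levels of Eprs, Tars, Wars and Hars in CPM on log axes in the 11 compared cell types, with 1 point per library and exact 95% Poisson intervals for counting error only. Eprs separates the libraries most in erythroblasts (9.61 and 161) and Tars in immature neutrophils (6.91 and 21.6), while Wars and Hars points overlap or lie lower in the MYC library in most types.

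Gars, the glycyl enzyme of both compartments, was past the fold upward in stem or multipotent progenitors (1.63-fold), mature neutrophils (1.72-fold) and erythroid cells of unresolved stage. Over the processing alternatives its log2 ratio ran from 0.25 to 0.86 in stem or multipotent progenitors, down to 0.54 in mature neutrophils and from 1.02 to 1.35 in erythroid cells of unresolved stage, so the call depended on the setting in the first 2 of these types. Kars, the lysyl enzyme of both compartments, passed it in conventional dendritic cells (35.6 to 54.2 CPM, 0.61), with -0.24 in granulocyte progenitors. Over the processing alternatives it ran from 0.38 to 0.69 in conventional dendritic cells and from -0.33 to 0.63 in erythroid cells of unresolved stage, so both places against the fold depended on the setting. Of the subunits of phenylalanyl-tRNA synthetase, Farsa was at 0.73 and Farsb at 0.46 in monocytes, and 0.15 and 0.53 in immature neutrophils. In erythroid cells of unresolved stage Farsa was at 0.66 (0.39 to 0.77 over the alternatives) and Farsb at 0.51 (0.24 to 0.59), and the differences between the subunits were not tested.

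Promoter sequence was searched in all members with an entry, for letters that 2 known regulators of these genes bind. RefSeq promoter windows (GRCm38.p6, from 250 bases before to 50 after the start) matched 27 of the 37 members. Both strands were searched for CACGTG, the E-box that MYC with its partner MAX binds, and for TGATGNAA, the core of the element that ATF4 with C/EBP proteins binds in amino acid response genes. CACGTG occurred in 5 members (Aars, Ears2, Farsb, Iars and Tars) and in 8.09% of all genes with a window. TGATGNAA occurred in 5 members, all cytosolic (Aars, Gars, Iars, Tars and Yars), and in 4.51% of all genes. A match describes letters, not a bound site. The windows from 150 bases before the start to 25 after it are shown for those 5 genes, chosen for the second motif and including Tars, the gene with the widest gap in immature neutrophils. They read 5′ to 3′ on the gene's strand, with matches to either motif in capitals (TTGCATCA and TTTCATCA are TGATGNAA read on the other strand).
Tars promoter, chr15:11399634-11399808, minus strand: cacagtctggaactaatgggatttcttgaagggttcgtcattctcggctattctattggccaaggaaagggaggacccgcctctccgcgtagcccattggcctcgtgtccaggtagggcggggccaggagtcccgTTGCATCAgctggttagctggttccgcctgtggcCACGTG
Iars promoter, chr13:49681980-49682154, plus strand: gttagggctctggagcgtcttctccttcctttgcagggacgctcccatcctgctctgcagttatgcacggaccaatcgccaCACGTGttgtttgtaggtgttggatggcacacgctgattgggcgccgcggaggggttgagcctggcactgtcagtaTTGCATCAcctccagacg
Aars promoter, chr8:111033692-111033866, plus strand: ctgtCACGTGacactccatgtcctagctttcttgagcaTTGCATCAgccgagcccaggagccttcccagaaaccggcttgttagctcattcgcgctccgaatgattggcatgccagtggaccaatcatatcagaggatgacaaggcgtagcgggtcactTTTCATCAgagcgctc
Gars promoter, chr6:55037851-55038025, plus strand: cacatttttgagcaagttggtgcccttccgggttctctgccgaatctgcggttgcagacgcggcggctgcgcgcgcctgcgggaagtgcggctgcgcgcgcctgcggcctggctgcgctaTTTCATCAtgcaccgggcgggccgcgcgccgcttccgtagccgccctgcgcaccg
Yars promoter, chr4:129189753-129189927, plus strand: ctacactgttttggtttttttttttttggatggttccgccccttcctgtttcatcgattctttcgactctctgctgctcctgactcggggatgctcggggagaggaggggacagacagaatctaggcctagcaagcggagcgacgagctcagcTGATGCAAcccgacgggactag
In Tars the ATF4-type match begins 15 bases before the start and the E-box 20 bases after it, and in Gars the ATF4-type match begins 30 bases before the start. Aars holds 2 ATF4-type matches and an E-box, Iars 1 of each, and Yars 1 ATF4-type match. No measurement here bears on whether a factor sat at these letters in these cells.

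The mitochondrial genes were sparse, and 1 of the 16 other than Lars2, Wars2, reached 100 UMIs in no compared type. Hars2 and Mars2 were below 0 in every type in which they could be measured (6 and 4 types). Yars2 was above 0 in all 4 of its types, from 0.31 to 0.53, and Fars2 in 4 of 5. In granulocyte progenitors the intervals of Cars2 (34.1 to 23.2 CPM, -0.55), Tars2 (20.1 to 13.5 CPM), Hars2 (11.5 to 7.74 CPM) and Mars2 lay below 0, while those of Yars2 (log2 ratio 0.43) and Fars2 (11.2 to 14.8 CPM, 0.39) lay above it. The all-gene median in that type was itself -0.29. Hars and Hars2 lie head to head on chromosome 18 with overlapping starts, and 3′ counting reads their far ends.

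Lars2, the mitochondrial leucyl enzyme (9:123366927-123462666, plus strand), had 267464 control and 155929 MYC UMIs, more than all other members together. Its level followed that of Gm42418 over cell types. It was lowest in granulocyte progenitors, 394 CPM (control) and 319 CPM (MYC), where Gm42418 was also lowest at 16803 and 9375 CPM. In T or NK cells of the control, Lars2 stood at 4953 CPM and Gm42418 at 305259 CPM. Lars2 UMIs were between 0.880% and 2.35% of Gm42418 UMIs over 17 control types and between 0.935% and 3.40% over 17 MYC types. The Pearson correlation of the log10 levels was 0.95 over control types and 0.92 over MYC types, as a description over types that share a library and depth. Lars2 rose from granulocyte progenitors to mature neutrophils (394 to 2778 CPM in the control) while the other mitochondrial genes were lower. Its ratio between libraries was below 0 in all 11 types and past the fold downward in 6, with -0.82 in stem or multipotent progenitors (1522 to 861 CPM) and -0.02 in mature neutrophils. How many of its UMIs come from leucyl enzyme transcripts was not tested, so it was kept out of the mitochondrial sums. With Lars2 included the mitochondrial percentage would be 135% and 66.6% in stem or multipotent progenitors.

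**Figure D5:**
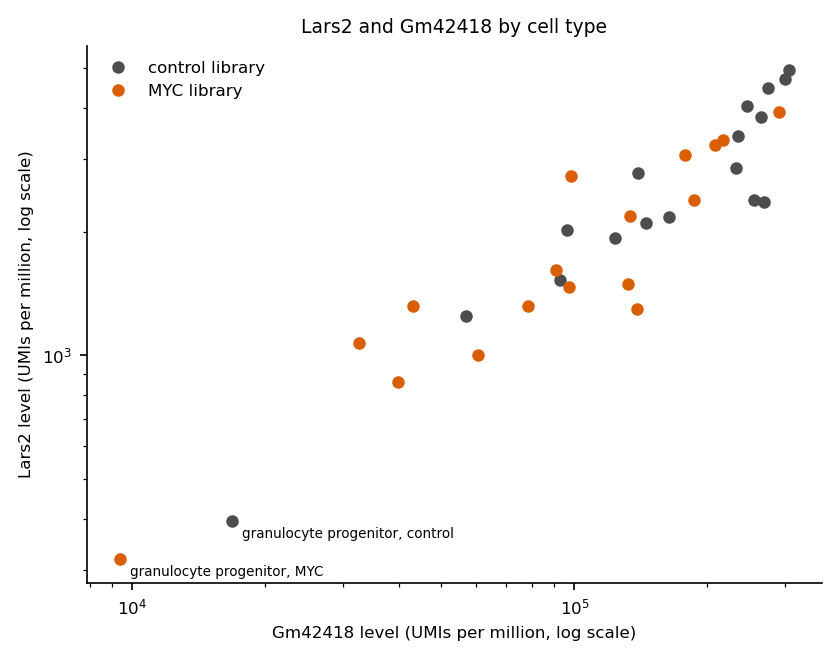
Level of Lars2 against Gm42418 in CPM, both on log axes, with 1 point per cell type and library (17 types in each). The points run along a diagonal in both libraries, and granulocyte progenitors, at 394 and 319 for Lars2, sit apart at the lower left.

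Of 101 values for the 16 partner genes, 75 were above 0, 19 were past the fold upward and 4 downward. In the types where partners passed upward, the share of all genes doing so was 5.09% in stem or multipotent progenitors, 7.65% in mature B cells, 8.35% in immature neutrophils, 9.72% in monocytes, 12.4% in erythroid cells of unresolved stage, 16.4% in conventional dendritic cells and 11.4% in T or NK cells. Downward it was 12.9% in stem or multipotent progenitors, 15.2% in erythroid cells of unresolved stage, 20.6% in mature neutrophils and 25.6% in granulocyte progenitors. Eef1e1, a scaffold protein of the complex, passed upward in immature neutrophils (3.68 to 9.13 CPM, 1.31), monocytes (12.7 to 27.9 CPM, 1.14), erythroid cells of unresolved stage (0.84) and stem or multipotent progenitors (0.61). Dtd1, which removes D-amino acids from tRNA, passed in the same 4 types, with 1.45 in erythroid cells of unresolved stage, 1.23 in monocytes, 1.09 in immature neutrophils and 0.82 in stem or multipotent progenitors. Aimp1 passed in immature neutrophils (44.6 to 70.1 CPM, 0.65) and conventional dendritic cells (0.61), and Aimp2 in monocytes (0.78). Xpot, the exporter of tRNA from the nucleus, passed in erythroid cells of unresolved stage (24.0 to 62.8 CPM, 1.38). Aarsd1, which edits mischarged alanyl-tRNA, passed in T or NK cells (0.97), mature B cells (0.82) and monocytes (0.71), and Prorsd1 in monocytes (0.96). Qrsl1 passed in immature neutrophils (1.11), and Pstk, which acts in selenocysteine tRNA synthesis, in erythroid cells of unresolved stage (1.17) and immature neutrophils (0.64). Downward past the fold were Tarsl2, the threonyl enzyme-like gene, in erythroid cells of unresolved stage (-0.62) and stem or multipotent progenitors (-0.64), Sepsecs in granulocyte progenitors (-1.12), and Sephs2 in mature neutrophils (125 to 75.2 CPM, -0.74). The last 2 belong to selenocysteine synthesis.

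Overlapping genes limit a few of these counts. A counted gene on the same strand covers the 3′ end of Aars (Exosc6), so reads there could be assigned to either gene or to none. Counted genes on the other strand cover the 3′ ends of Cars2, Fars2, Farsb, Iars2, Mars, Vars2 and Yars.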

How the data were processed

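UMI counts per gene and cell were deposited by the authors as 1 matrix per library. They came from Cell Ranger 6.0 on GRCm38, with Seurat also listed, per the submitters' processing notes, and from a Chromium 3′ kit, per the labels' protocols. Cells with at least 500 UMIs, at least 200 genes and under 10% mitochondrial UMIs were kept. Doublets were removed with Scrublet at a score of 0.3 in both libraries (4.79% of control and 3.58% of MYC cells), since its automatic threshold marked 0 MYC cells. Cells were clustered with scanpy 1.11.5 (2000 variable genes, 30 principal components, 15 neighbours, Leiden resolution 1) and named from marker lists. UMIs were summed per type and library and divided by the type's total (CPM). Ratios were computed for genes with at least 100 UMIs over both libraries, in types with at least 100 cells in each. "Past the fold" means at least 1.5-fold. Intervals are 95%, exact Poisson for levels and exact conditional binomial for ratios, and hold counting error alone. No test between groups was made, each having 1 library. The ratio step was checked on simulated counts.

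The members and lists were chosen with earlier results of these data known. Named by rule were, in each type, the 2 highest and 2 lowest members, over all cells the 5 most and 2 least counted of each compartment, and Eprs, Wars, Kars, Gars, Farsa, Farsb and Lars2. Partner genes past the fold were also named, and other members were named after their values were seen. Leaving out clusters mostly of 1 library was an alternative chosen after seeing the data. The values of 1 mitochondrial member are not reported here on their own, though its counts are in the sums.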

Additional observations from a re-analysis of the deposited data

How the results depend on the processing

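No paired analysis was possible because each genotype had 1 library, and for the same reason no replicate could be left out. The cause of each change below was not tested. Of the summary values under the alternatives, 321 stayed close to the reported value, 38 moved and 1 reversed, where moved means outside the spread between the genes behind a median or, for a count, a change of over 1.5 times. Relative to the all-gene median, the mitochondrial median in stem or multipotent progenitors reversed to 0.057, those in immature and mature neutrophils, close to 0 as reported, turned to 0.18 and 0.13, the cytosolic median was 0.36 in granulocyte progenitors, 0.50 in mature neutrophils and 0.58 in monocytes, and the numbers past the fold were 55 higher and 2 lower (cytosolic, 35 and 4 as reported) and 9 higher and 2 lower (mitochondrial, 1 and 4 as reported). With the 20 most abundant genes left out of the total, the monocyte cytosolic median was 0.30, the mature B cell partner median 0.17 (0.30 in the main analysis), and mitochondrial numbers 0 higher and 10 lower. With doublets kept, the mitochondrial stem or multipotent progenitor median was -0.36, the mature B cell partner median 0.24, cytosolic lower 2, and mitochondrial 2 higher and 8 lower. With cells under 5% mitochondrial UMIs, the partner median in granulocyte progenitors was 0.50 (near 0 in the main analysis), the cytosolic median in mature neutrophils 0.12, cytosolic lower 2 and mitochondrial higher 6. With at least 1000 UMIs and 500 genes per cell, the cytosolic granulocyte progenitor median was 0.25 and cytosolic lower 2. At Leiden resolution 2 the cytosolic median was 0.29 in granulocyte progenitors and 0.31 over 14 genes in erythroblasts, where the main analysis gave 2.32 over 3 genes. At resolution 0.5 cytosolic higher was 17, over 8 types in place of 11. Averaging over cells gave a partner median of 0.63 in conventional dendritic cells (0.48 in the main analysis) and mitochondrial higher 3. A minimum of 50 UMIs gave mitochondrial 6 higher and 9 lower. A minimum of 1 UMI with a pseudocount of 1 CPM gave a mature B cell partner median of 0.030, cytosolic lower 7, and mitochondrial 19 higher and 24 lower. A fold of 2 gave cytosolic 13 higher and 0 lower and mitochondrial 0 higher and 0 lower. With Lars2 included, mitochondrial lower was 10.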
